A study of Mus musculus with 28 samples.

Results

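The miR-130 and miR-301 family was followed in mouse left ventricle through 6 of its mature miRNAs: mmu-miR-130a-3p, mmu-miR-130b-3p, mmu-miR-301a-3p and mmu-miR-301b-3p from the 3′ arms of their hairpins, and mmu-miR-130b-5p and mmu-miR-301a-5p from the 5′ arms (the species prefix is left out below). They are 6 of the 1485 mature names listed over 28 small RNA libraries. The family was chosen by the measured level of miR-130b-3p, which was lower in sham hearts of 10 days than in sham hearts of 4 days, so values of that contrast, and of other contrasts with the same sham libraries, are given as a description with no test. The animals were outbred mice of the stock Hsd:ICR(CD-1), kept with their litter and mother. They had either a ligation of the left anterior descending coronary artery, which causes myocardial infarction (MI), or a sham operation, on postnatal day 1 (P1) or 7 (P7). The tissue was wall of the left ventricle from the remote zone, away from the infarct. After 3 days each of the groups sham P1 and MI P1 (age 4 days), sham P7 and MI P7 (age 10 days) had 4 libraries. After 21 days the same groups, now aged 22 and 28 days, had 3 libraries each. A newborn mouse heart can regrow muscle after injury, an ability that fades in the first week of life, so P1 lies before and P7 after that loss.

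A mature miRNA guides the silencing complex to messenger RNAs, mainly through its seed, the bases near its 5′ end, and miRNAs with the same seed can act on overlapping sets of messages. Of a hairpin's arms, 1 is usually loaded and kept while the other is degraded, so the less abundant arm carries a different seed at a lower level. In vascular biology, miR-130a is known from human endothelial cells, where it represses the anti-angiogenic homeobox genes GAX and HOXA5. In mouse heart, miR-130a is known to limit translation of the GATA4 cofactor FOG-2. Members of the family also repress the nuclear receptor PPARγ, a relation described in fat cells and in cells of the pulmonary vessel wall.

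The mature sequences show which members share a seed, and they were found in RefSeq (GRCm38.p6) for 5 of the 6 members. They are written 5′ to 3′ with the seed, bases 2 to 8, in capitals.
miR-130a-3p: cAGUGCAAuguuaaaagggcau
miR-130b-3p: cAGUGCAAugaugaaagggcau
miR-301a-3p: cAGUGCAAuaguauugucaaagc
miR-130b-5p: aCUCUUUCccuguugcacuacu
miR-301a-5p: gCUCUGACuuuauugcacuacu
The 3 members from 3′ arms shown here share the seed AGUGCAA, and the 2 members from 5′ arms each have another seed. Counted from the 5′ end, miR-130a-3p and miR-130b-3p differ at 2 of 22 bases (U11A and A13G), so their first 10 bases are the same. Against miR-301a-3p, miR-130a-3p differs at 10 bases and miR-130b-3p at 11, all behind the 9 bases that they share at the start. RefSeq lists 4 other mouse miRNAs with this seed (miR-6341, miR-721, miR-6389 and miR-130c), and 0 of them were listed in these libraries.

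The members come from 4 hairpins at 3 places in the genome. In GRCm38, miR-130a-3p lies at chr2:84741116-84741137 on the minus strand, in a hairpin that overlaps no other annotated gene. The arms of mir-301a lie at chr11:87113054-87113076 (3p) and chr11:87113017-87113038 (5p) on the plus strand, in an intron of Ska2, a gene known for a role in chromosome segregation. The arms of mir-130b lie at chr16:17124071-17124092 (3p) and chr16:17124109-17124130 (5p) on the minus strand, in an intron of 2610318N02Rik. The hairpin of mir-301b (chr16:17124400-17124496) sits in the same gene and on the same strand, with 257 bases between both hairpins. Since mir-130b gave reads from both arms in every library, its hairpin is shown with its 5p and then its 3p arm in capitals.
mir-130b: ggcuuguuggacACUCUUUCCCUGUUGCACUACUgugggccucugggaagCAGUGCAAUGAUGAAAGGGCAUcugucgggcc

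Levels are given as CPM, counts per 1000000 (M) of the library's miRNA counts, scaled with TMM, and fold changes are log2 values with a standard error (SE). The 3-day and 21-day libraries were made with different kits, so levels are compared only within a follow-up. All 6 members passed the filter on low counts in both follow-ups. Deposited counts per library at 3 days came to 5.61 to 13.0 M in MI P1 and 1.29 to 1.95 M in MI P7. In sham P1 they split by the number that opens the library's title: 6.25 and 9.26 M for code 1078, 1.56 and 2.65 M for code 1103. In sham P7 they were 1.61 to 3.42 M, and at 21 days 18.2 to 26.9 M in all groups. Every title code occurs in 1 group only, and what it stands for is not given in the labels. The 2 sham P1 libraries of code 1103 stood apart from those of code 1078 in the values below, and results that rest on this group are given with and without them. The cardiomyocyte miRNAs miR-1a-3p, miR-133a-3p, miR-208a-3p, miR-208b-3p and miR-499-5p were all listed in every group. Their summed level was 88820 to 324300 CPM at 3 days and 55970 to 157400 CPM at 21 days. Within sham P1 at 3 days, miR-1a-3p was at 96160 and 88270 CPM in code 1078 and at 2380 and 2795 CPM in code 1103. The order was reversed for miR-133a-3p, at 55670 and 61270 CPM in code 1078 and at 224400 and 250400 CPM in code 1103.

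In sham hearts 3 days after the operation, miR-130b-3p measured 315, 296, 34.7 and 69.4 CPM at P1 and 22.9, 1.26, 5.49 and 27.5 CPM at P7. The groups did not overlap, and within sham P1 the 2 lower values were the libraries of code 1103. The log2 difference, P7 minus P1, was -3.59 ± 0.76 (SE, n = 4 against 4), which is the contrast that picked the family. It was -4.24 ± 0.52 without code 1103 and -1.80 ± 0.55 without code 1078.

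The other 5 members also had lower means at P7 over all sham libraries, but for 3 of them (miR-301a-3p, miR-301a-5p and miR-130b-5p) the direction turned when the libraries of 1 title code were left out. For miR-130a-3p the levels were 4453, 3250, 299.9 and 701 CPM at P1 against 473, 220.3, 362 and 729 CPM at P7, with a log2 difference of -2.29 ± 0.64. It was -3.04 ± 0.36 without code 1103 and -0.18 ± 0.40 without code 1078, so the gap lay almost wholly in the libraries of code 1078. For miR-301a-3p the P1 libraries ran from 17.4 CPM (code 1103) to 732 CPM (code 1078) around a P7 range of 70.5 to 304.5 CPM. Its log2 difference of -0.84 ± 0.85 became -1.72 ± 0.51 without code 1103 and 2.76 ± 0.62 without code 1078, so its direction depended on which pair of P1 libraries was kept. For miR-301b-3p the levels were 52.4, 41.7, 8.68 and 11.8 CPM at P1 and 3.39, 0, 5.49 and 12.9 CPM at P7, with a log2 difference of -2.31 ± 0.75. That difference was -2.87 ± 0.59 without code 1103 and -0.79 ± 0.69 without code 1078. These groups overlapped, and the 0 reads in sham P7 replicate 2 allow up to 3.78 CPM (3 counts of that library). For miR-301a-5p the P1 libraries of code 1078 held 48.0 and 53.7 CPM, those of code 1103 held 0 CPM (0 reads, which allow up to 2.89 CPM) and 1.61 CPM, and P7 ranged from 0.848 to 4.39 CPM. Its log2 difference of -3.58 ± 1.06 was -4.43 ± 0.52 without code 1103 and turned to 1.08 ± 0.98 without code 1078, the last from 0 and 3 reads at P1 and 1 to 4 reads per library at P7. For miR-130b-5p the order was the other way round within P1, with 97.4 and 57.0 CPM in code 1103 and 24.7 and 36.6 CPM in code 1078, and P7 ranged from 22.9 to 42.8 CPM. Its log2 difference of -0.68 ± 0.39 turned to 0.22 ± 0.34 without code 1103 and was -1.19 ± 0.33 without code 1078. Over all miRNAs of this contrast, 22% were called at an adjusted p under 0.05 and 18.2% were called lower. Groups did not overlap, with P7 lower, for 8.3% of all miRNAs and for 1 of the 6 members, miR-130b-3p.

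**Figure D1:**
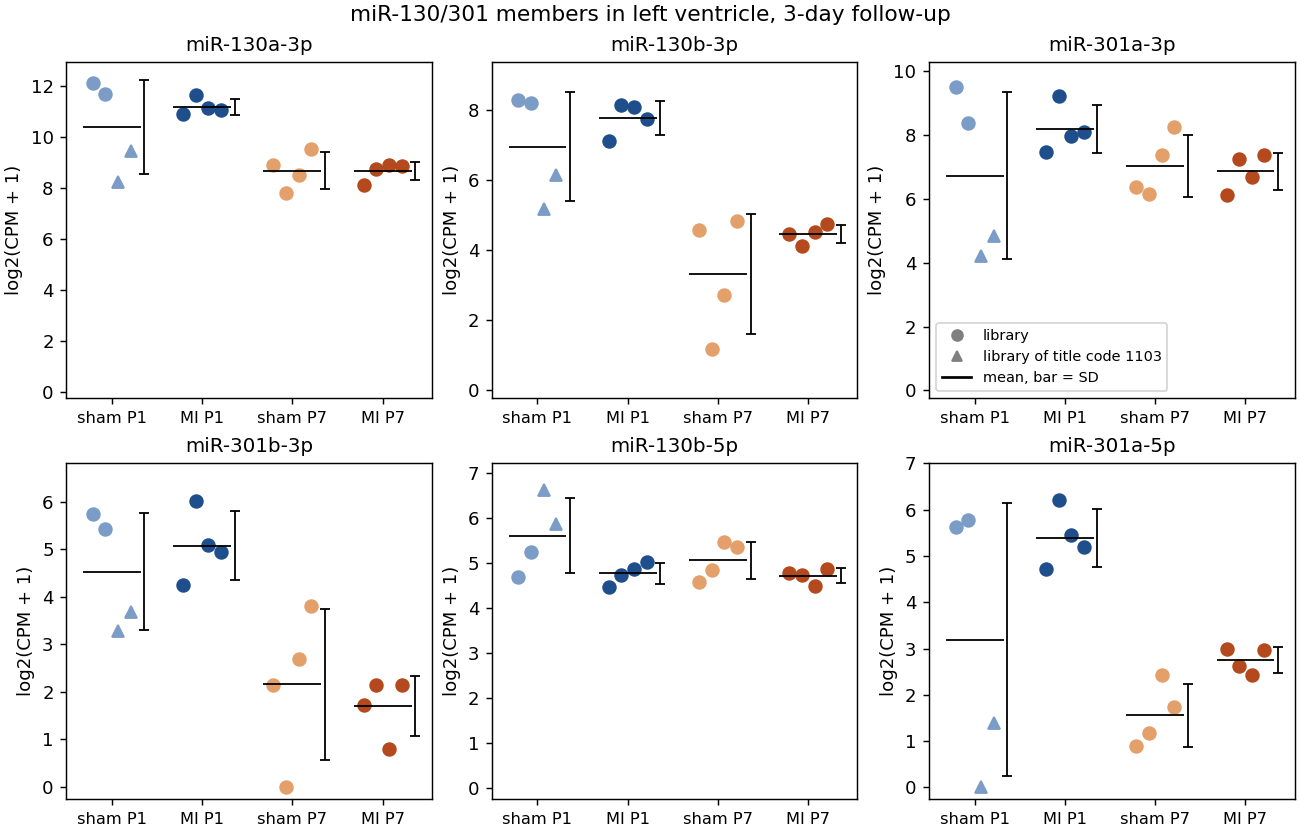
Levels of the 6 members in each 3-day library as log2(CPM + 1), with the mean as a line and the SD of the log2 values as a bar (n = 4 per group); triangles mark the sham P1 libraries of title code 1103. All MI P7 points lie below all MI P1 points for every member except miR-130b-5p, and the triangles lie near the P7 groups or below them for miR-130a-3p, miR-301a-3p and miR-301a-5p.

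Infarcted hearts were not used to pick the family, and the same step from P1 to P7 was tested in them. In every comparison of P7 with P1, age at sampling and day of operation differ together and cannot be told apart. At 3 days, 4 of the 6 members were lower in MI P7 (10 days old) than in MI P1 (4 days old): miR-130a-3p, miR-130b-3p, miR-301b-3p and miR-301a-5p. Of these, miR-301b-3p (1 to 4 reads per MI P7 library) and miR-301a-5p (6 to 8 reads) passed the low-count filter only because of P1 libraries. Their high P1 levels thus brought them into the test, so these 2 calls are no support for a fall. Only the calls of miR-130a-3p and miR-130b-3p were also made by limma-voom with title codes as random blocks, where the adjusted p was 0.0528 for miR-301b-3p and 0.08 for miR-301a-5p. This contrast was broad, since 62.6% of the 446 miRNAs tested were called, 32.3% as higher and 30.3% as lower. The median log2 difference was -2.72 over the members and -0.13 over all miRNAs tested. The median over the members includes miR-301b-3p and miR-301a-5p, so it is no support for a fall of the family either.

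The most abundant member, miR-130a-3p, measured 1899, 3168, 2226 and 2121 CPM in MI P1 and 277, 428, 473 and 465 CPM in MI P7. Its mean fell from 2353 ± 560 CPM to 411 ± 91.4 CPM (SD, n = 4 each), a log2 difference of -2.52 ± 0.64 (edgeR adjusted p = 0.00577). The groups were far apart, with the lowest MI P1 library well above the highest MI P7 library.

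The member behind the choice, miR-130b-3p, measured 137, 282, 272 and 215.5 CPM in MI P1 and 20.8, 16.3, 21.97 and 25.6 CPM in MI P7. Its mean fell from 227 ± 66.6 CPM to 21.2 ± 3.86 CPM, a log2 difference of -3.42 ± 0.76 (edgeR adjusted p = 0.00288). The 4 MI P7 libraries lay close to each other, between the sham P7 libraries that were lowest and highest.

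For miR-301b-3p, which is made from the neighbouring hairpin, the levels were 18.0, 63.7, 33.2 and 29.9 CPM in MI P1 and 2.31, 3.42, 0.732 and 3.41 CPM in MI P7. The MI P7 values rest on 2, 4, 1 and 4 reads, against 108 to 684 reads in MI P1. The log2 difference was -3.87 ± 0.84 (edgeR adjusted p = 0.0027), and the groups did not overlap.

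The arms of mir-301a gave unlike results. miR-301a-5p measured 25.3, 72.8, 42.7 and 35.5 CPM in MI P1 and 6.92, 5.13, 4.39 and 6.83 CPM in MI P7, from 6 to 8 reads per MI P7 library. It fell by 2.93 ± 0.96 on the log2 scale (edgeR adjusted p = 0.0179). miR-301a-3p measured 177, 599, 249 and 271 CPM in MI P1 and 69.2, 151, 101 and 166 CPM in MI P7. Its groups did not overlap either, but the log2 difference of -1.41 ± 0.86 missed the threshold (edgeR adjusted p = 0.155), and it passed in a fit of only MI P1 and MI P7 (-1.12 ± 0.36, edgeR adjusted p = 0.0114). The difference between the arms was not tested.

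miR-130b-5p was the exception among the 6. It measured 21.1, 25.5, 28.1 and 31.5 CPM in MI P1 and 26.5, 25.7, 21.2 and 28.2 CPM in MI P7, and the groups overlapped almost fully. The log2 difference was -0.07 ± 0.39 (edgeR adjusted p = 0.888). Groups did not overlap, with MI P7 lower, for 5 of the 6 members and for 39% of all miRNAs tested. Among these 5 are miR-301b-3p and miR-301a-5p, which passed the low-count filter only because of P1 libraries. Their lack of overlap is therefore no support for a fall.

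The 4 calls were made in all 8 fits that left out 1 library of these groups. For miR-301b-3p and miR-301a-5p these fits do not undo the choice made by the low-count filter, so they add no support for a fall. Depth moved with this contrast, as every MI P1 library was deeper than every MI P7 library, and its part in the result was not tested. So did markers of other cell types. Of the endothelial pair, the summed level was 83560 to 103900 CPM in MI P1 and 9771 to 21410 CPM in MI P7, and 1 of 2 was lower (miR-126a-3p, -2.55 ± 0.83, edgeR adjusted p = 0.0178). In sham hearts of this follow-up the same sum ran from 3913 to 158400 CPM at P1 and from 12940 to 36680 CPM at P7. Within sham P1, miR-126a-3p was at 111900 and 147400 CPM in code 1078 and at 3684 and 5957 CPM in code 1103. The mural pair summed to 19140 to 24760 CPM in MI P1 and 5156 to 7240 CPM in MI P7 (1 of 2 lower), and the 3 erythroid markers to 874 to 1440 CPM and 7545 to 12880 CPM (1 higher, 1 lower). Summed cardiomyocyte levels were 88820 to 157900 CPM and 153200 to 169700 CPM (1 of 5 higher, 2 lower), fibroblast levels 8310 to 12680 CPM and 2717 to 5043 CPM (1 of 3 higher, miR-214-3p), and leukocyte levels 2387 to 4435 CPM and 2619 to 3525 CPM (1 of 4 higher, 1 lower). Of the cardiomyocyte markers only miR-133a-3p had a positive log2 difference (1.43 ± 0.43). Those of the others were -1.57 (miR-1a-3p), -0.94 (miR-208a-3p), -2.91 (miR-208b-3p) and -1.82 (miR-499-5p), so their sum hides unlike directions. The liver miRNA miR-122-5p, at 52.8 to 1641 CPM and 1.15 to 208 CPM, was not called. The part of these cell types in the members' result was not tested. In whole tissue, fewer cells of a type and less of a miRNA per cell cannot be told apart.

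**Figure D2:**
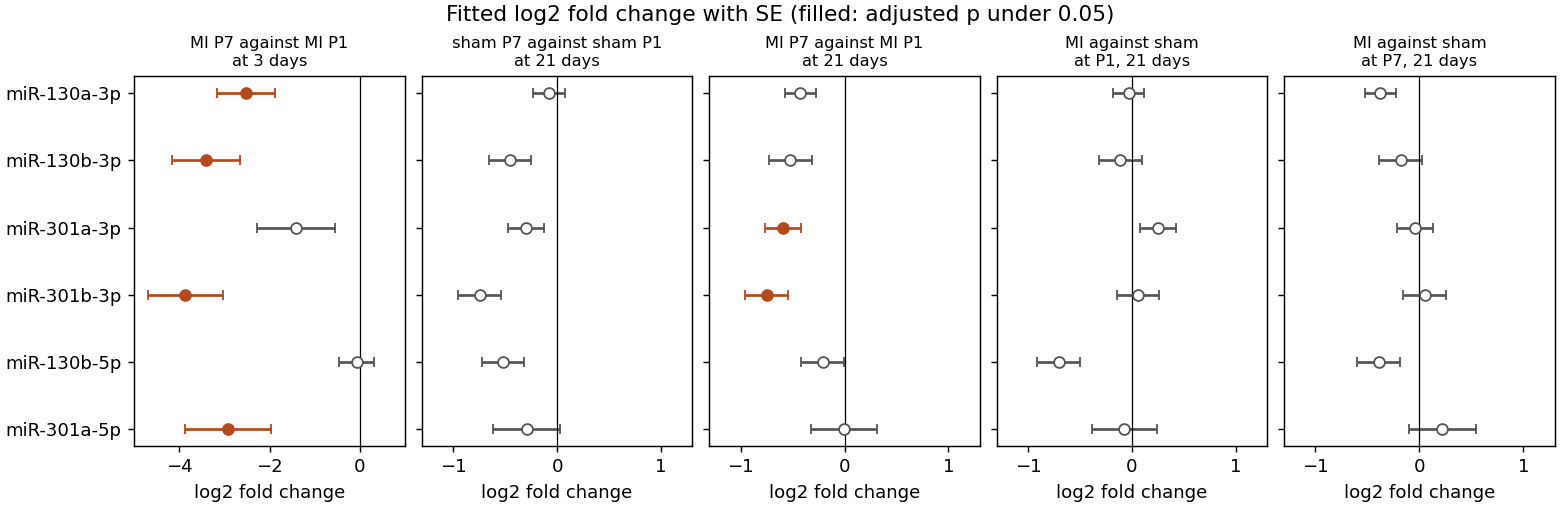
Fitted log2 fold changes of the 6 members (points, with SE as bars) in the 5 pairwise comparisons that were tested, filled where the edgeR adjusted p was under 0.05. The 3-day panel has a wider axis; 4 members are filled there, and 2 (miR-301a-3p and miR-301b-3p) in MI P7 against MI P1 at 21 days.

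MI and sham hearts of the same age were also set side by side at 3 days. These values are a description, since the sham libraries took part in the choice. At P1 the log2 differences, MI minus sham, were 0.11 ± 0.61 for miR-130a-3p, 0.34 ± 0.68 for miR-130b-3p, 0.22 ± 0.84 for miR-301a-3p, 0.31 ± 0.67 for miR-301b-3p and 0.73 ± 0.84 for miR-301a-5p. For miR-130b-5p it was -1.01 ± 0.38. All 6 depended on the sham libraries kept: without code 1103 they were -0.78, -0.51, -0.79, -0.43, -0.26 and -0.28 in that order. Without code 1078 the first 4 were 2.02, 1.88, 3.63 and 1.59, and that of miR-130b-5p was -1.74. That of miR-301a-5p was then 5.20, against sham libraries with 0 and 3 reads, so its size is poorly fixed.

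At P7 the log2 differences, MI minus sham, were smaller than their errors for 4 members: -0.12 ± 0.61 for miR-130a-3p, 0.51 ± 0.72 for miR-130b-3p, -0.35 ± 0.85 for miR-301a-3p and -0.39 ± 0.40 for miR-130b-5p. For miR-301b-3p it was -1.25 ± 0.88, from at most 22 reads per library. For miR-301a-5p all 4 MI libraries (4.394 to 6.92 CPM) lay just above all 4 sham libraries (0.848 to 4.390 CPM), with a log2 difference of 1.38 ± 1.13. The sham values rest on 1 to 4 reads, and groups did not overlap, with MI higher, for 14.6% of all miRNAs.

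Both arms of mir-130b were read in every library, which gave a ratio within each library that needs no scaling. In MI P1 there were 6.48, 11.1, 9.67 and 6.83 reads of miR-130b-3p per read of miR-130b-5p. In MI P7 the ratios were 0.783, 0.633, 1.03 and 0.909, so the arms were about equally read. The ratio thus differed between MI P1 and MI P7 without overlap. Raw reads of the 5p arm were also fewer in MI P7 (23 to 33) than in MI P1 (127 to 274). As scaled CPM, the 3p arm was lower in MI P7 without overlap, and the 5p arm overlapped. In sham P1 it was 12.7 and 8.08 for code 1078 but 0.356 and 1.22 for code 1103. In sham P7 it was 1, 0.0455, 0.128 and 0.691, from 1 to 47 reads of the 3p arm. The 6 libraries with ratios of 6.48 and above were also the 6 deepest of the follow-up, at 5.61 to 13.0 M deposited counts against 1.29 to 3.42 M in the other 10. Depth and ratio therefore moved together, also within sham P1, and the part of depth was not tested.

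For mir-301a the 3p arm was the more abundant in every 3-day library. It gave 7.02, 8.23, 5.83 and 7.62 reads per read of the 5p arm in MI P1 and 10, 29.5, 23 and 24.4 in MI P7, again without overlap. Here the ratio was higher in MI P7, with only 6 to 8 reads of the 5p arm in each MI P7 library. In sham P1 it was 15.3 and 6.22 for code 1078. For code 1103 it was 17 in replicate 4, from 3 reads of the 5p arm, and replicate 3 had 0 reads of that arm. In sham P7 it was 97, 56, 37.5 and 130, from 1 to 4 reads of the 5p arm. The MI P1 libraries were the deeper ones here as well, and the part of depth was not tested.

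At 21 days the ratio for mir-130b was 4.19 to 7.08 in sham P1, 6.45 to 9.19 in MI P1, 4.75 to 6.70 in sham P7 and 4.45 to 8.27 in MI P7. All 4 ranges overlapped, and the 3p arm was the more abundant in all 12 libraries. For mir-301a the ratio ran from 613 to 1790 over the same libraries. These ratios come from another kit and are not compared with those at 3 days.

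**Figure D3:**
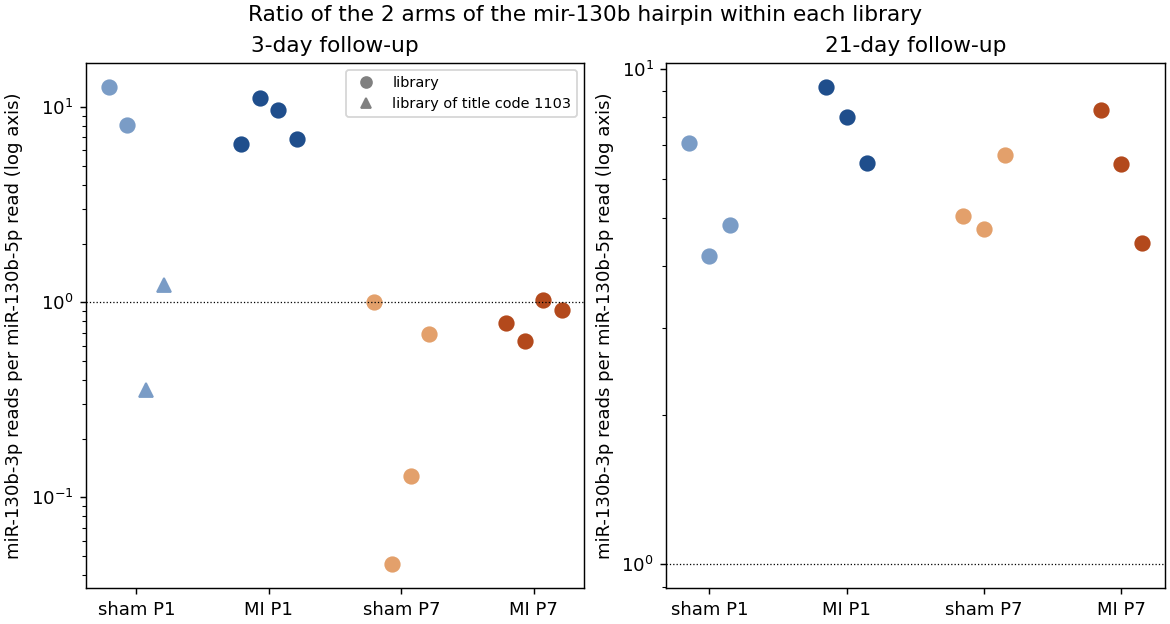
Reads of miR-130b-3p per read of miR-130b-5p in each library, on a log axis whose range differs between the panels; the dotted line marks equal reads and triangles mark title code 1103. At 3 days the MI P1 libraries (6.48 to 11.1) and 2 sham P1 libraries (8.08 and 12.7) lie above all others (0.0455 to 1.22), while at 21 days the groups overlap.

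At 21 days the sham groups, 22 and 28 days old, gave the step from P1 to P7 in libraries that were not used to pick the family. No member was called with edgeR, nor was any of the 598 miRNAs tested (0%), although 72 of all and 3 of the members had an unadjusted p under 0.05. With DESeq2, 14 miRNAs were called, among them 1 member, miR-301b-3p (-0.73 ± 0.22, DESeq2 adjusted p = 0.049). With limma-voom 0 members were called.

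All 6 fitted differences were negative, and the 3 with the smallest p came from the chromosome 16 pair. miR-301b-3p measured 19.4, 22.6 and 18.9 CPM in sham P1 and 15.7, 9.27 and 11.5 CPM in sham P7, a log2 difference of -0.74 ± 0.21 (edgeR adjusted p = 0.117). miR-130b-3p measured 36.4, 31.3 and 32.03 CPM in sham P1 and 22.6, 23.4 and 26.9 CPM in sham P7, a log2 difference of -0.45 ± 0.21 (edgeR adjusted p = 0.396). miR-130b-5p measured 5.14, 7.46 and 6.63 CPM in sham P1 and 4.46, 4.93 and 4.01 CPM in sham P7, a log2 difference of -0.52 ± 0.20 (edgeR adjusted p = 0.271). These 3 members did not overlap between the groups, as 12.7% of all miRNAs did with P7 lower. The other 3 overlapped: miR-301a-3p (-0.30 ± 0.17), miR-301a-5p (-0.29 ± 0.32) and miR-130a-3p, the most even of them at 1475 to 1690 CPM in sham P1 and 1394 to 1593 CPM in sham P7 (-0.08 ± 0.15).

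In infarcted hearts at 21 days, 2 of the 6 members were called lower in MI P7 than in MI P1, where 13.5% of all miRNAs were called, 5.18% lower and 8.36% higher. miR-301a-3p measured 2381, 2437 and 2114 CPM in MI P1 and 1354, 1527 and 1707 CPM in MI P7. Its log2 difference was -0.60 ± 0.17 (edgeR adjusted p = 0.0384). miR-301b-3p measured 22.6, 22.5 and 18.4 CPM in MI P1 and 11.6, 12.5 and 13.7 CPM in MI P7. Its log2 difference was -0.75 ± 0.21 (edgeR adjusted p = 0.0302). Neither member overlapped between the groups.

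Of the other members, miR-130a-3p measured 1633, 1471 and 1555 CPM in MI P1 and 1272, 1204 and 999 CPM in MI P7 (-0.42 ± 0.15, edgeR adjusted p = 0.0755). miR-130b-3p measured 35.8, 29.4 and 27.2 CPM in MI P1 and 25.4, 23.5 and 15.5 CPM in MI P7 (-0.52 ± 0.21, edgeR adjusted p = 0.0984). miR-130b-5p was at 3.68 to 4.21 CPM and 3.07 to 3.66 CPM (-0.21 ± 0.21, edgeR adjusted p = 0.526). These 3 did not overlap either, which makes 5 of 6 members against 16.7% of all miRNAs with MI P7 lower. miR-301a-5p overlapped, at 1.36 to 2.43 CPM and 1.51 to 2.79 CPM.

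The 2 calls did not hold in several other fits. Their count was 0 with total count scaling, with no filter on low counts and with only MI P1 and MI P7 in the fit. It was also 0 without MI P1 replicate 1, MI P1 replicate 2 or MI P7 replicate 1, and 1 without MI P1 replicate 3. With total count scaling the median of all miRNAs moved from 0.02 to 0.33, and the log2 differences were -0.29 for miR-301a-3p and -0.44 for miR-301b-3p. Fibroblast markers moved with this contrast: 3 of 3 were higher in MI P7, and their summed level was 5690 to 6676 CPM in MI P1 and 9686 to 27440 CPM in MI P7. The cardiomyocyte sum was 121900 to 141500 CPM and 55970 to 92570 CPM, with 1 of 5 lower (miR-133a-3p, -0.85 ± 0.21, edgeR adjusted p = 0.0203). Of the 4 leukocyte markers 1 was lower, and 0 of the endothelial, mural and erythroid markers were called. The part of these cell types in the members' result was not tested. Each 21-day group has its own title code, so code and group cannot be told apart.

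**Figure D4:**
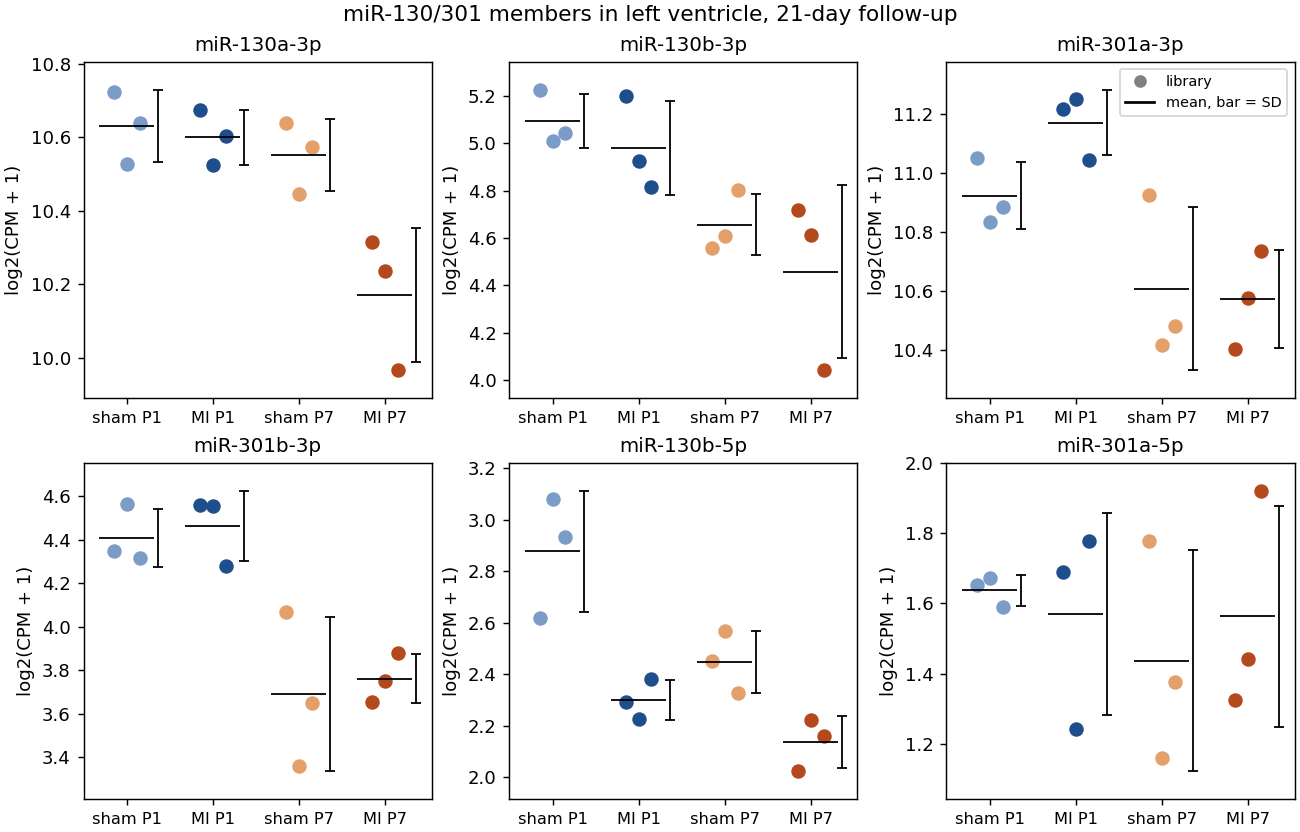
Levels of the 6 members in each 21-day library as log2(CPM + 1), with the mean as a line and the SD of the log2 values as a bar (n = 3 per group); the axes do not start at 0 and differ between panels. Both P7 groups lie below both P1 groups for miR-130b-3p and miR-301b-3p, and for miR-130a-3p only MI P7 stands below the other groups.

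No member was called between MI and sham hearts of the same operation day at 21 days. At P1, 0.502% of all miRNAs and 0 of the 6 members were called. The member with the smallest p was miR-130b-5p, at 5.14, 7.46 and 6.63 CPM in sham P1 and 3.89, 3.68 and 4.21 CPM in MI P1. All 3 MI libraries were below all 3 sham libraries, as for 10% of all miRNAs, and the log2 difference was -0.71 ± 0.20 (edgeR unadjusted p = 0.00385, adjusted p = 0.383). The differences of the other 5 lay between -0.11 and 0.25, and their groups overlapped. The highest was that of miR-301a-3p, at 1824 to 2123 CPM in sham P1 and 2114 to 2437 CPM in MI P1 (0.25 ± 0.17, edgeR adjusted p = 0.79).

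At P7, 22.1% of all miRNAs and 0 of the 6 members were called. miR-130a-3p had the smallest p: it measured 1593, 1394 and 1522 CPM in sham P7 and 1272, 1204 and 999 CPM in MI P7. The MI libraries were all below the sham libraries, and the log2 difference was -0.38 ± 0.15 (edgeR unadjusted p = 0.0257, adjusted p = 0.0903). miR-130b-5p did not overlap either, at 4.01 to 4.93 CPM in sham and 3.07 to 3.66 CPM in MI (-0.39 ± 0.21, edgeR adjusted p = 0.179), and MI P7 lay below sham P7 without overlap for 18.7% of all miRNAs. The other 4 differences lay between -0.18 and 0.22. The 3 fibroblast markers were all higher in MI P7 here as well (summed 5309 to 6291 CPM in sham P7). Of the other markers, miR-126a-3p (endothelial, -0.78 ± 0.21, edgeR adjusted p = 0.0195), miR-133a-3p (cardiomyocyte, -1.01 ± 0.21, edgeR adjusted p = 0.00844) and miR-150-5p (leukocyte, -1.26 ± 0.30, edgeR adjusted p = 0.0124) were lower in MI P7. The leukocyte miRNA miR-142a-3p was higher (0.58 ± 0.19, edgeR adjusted p = 0.0392), and the part of these cell types was not tested. The MI effect at P7 minus that at P1 was called for 9.87% of all miRNAs and for 0 of the 6 members, with 0 members at an unadjusted p under 0.05 and 0 called by DESeq2 or limma-voom. Among the members this difference was lowest for miR-130a-3p, at -0.35 ± 0.21 (edgeR adjusted p = 0.301), and highest for miR-130b-5p, at 0.31 ± 0.29 (edgeR adjusted p = 0.491).

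The make-up of the family was also measured within each library. At 3 days miR-130a-3p held 61.9 to 83.4% of the reads of the 6 members. miR-301a-3p held 7.79 to 14.2% of them in MI P1 and 16.2 to 24.0% in MI P7, and miR-130b-3p held 6.01 to 9.53% and 2.58 to 5.16%. At 21 days miR-301a-3p held 47.7 to 62.3% and miR-130a-3p 36.4 to 50.8%, while each of the other 4 members stayed under 1% in every library. A difference in capture between the kits and a change with age cannot be told apart in these shares. Summed over the 6 members, the level was 2278 to 4211 CPM in MI P1 and 403 to 696 CPM in MI P7 at 3 days, and 3721 to 4078 CPM and 2667 to 2771 CPM at 21 days. The sham groups overlapped in this sum, at 458 to 5625 CPM in sham P1 and 321 to 1116 CPM in sham P7 at 3 days. At 21 days they overlapped at 3363 to 3876 CPM and 2800 to 3582 CPM. The overlap at 3 days lay in the sham P1 libraries of code 1103, at 458 and 868 CPM. Those of code 1078 held 5625 and 4012 CPM, above all sham P7 libraries.

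**Figure D5:**
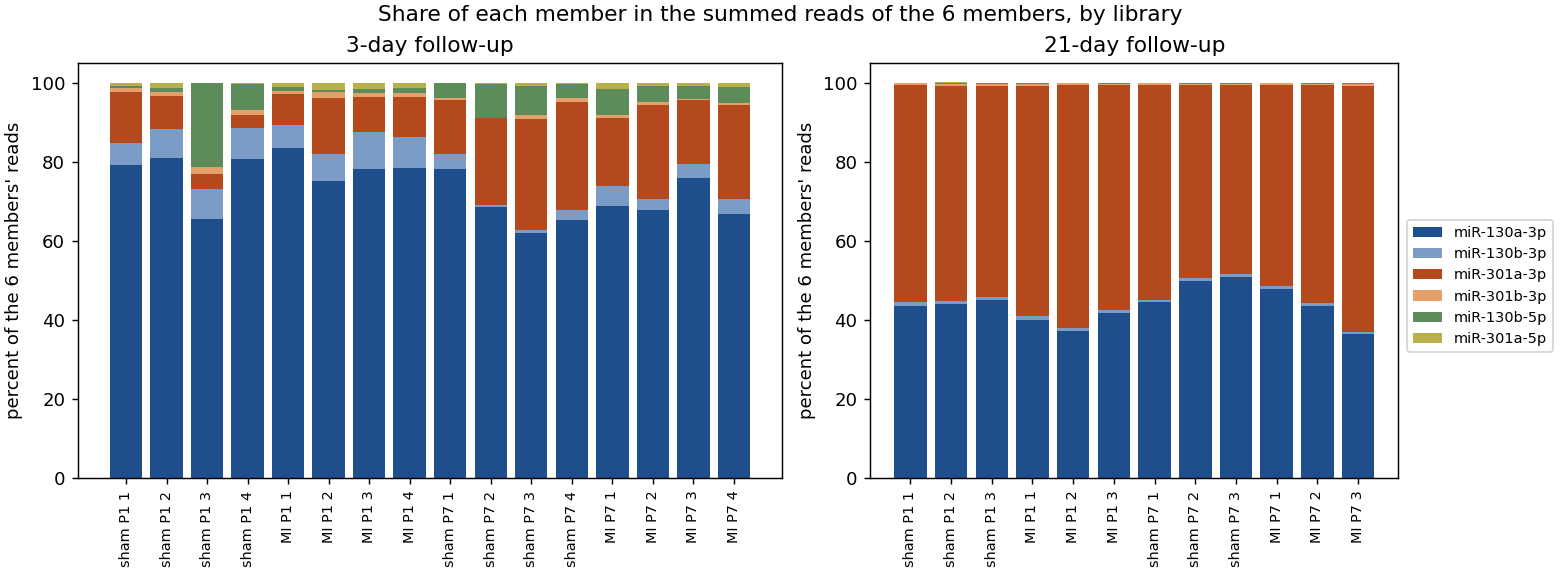
Share of each member in the summed reads of the 6 members, 1 bar per library, in percent. miR-130a-3p fills 61.9 to 83.4% of each bar at 3 days, and miR-130a-3p and miR-301a-3p together fill nearly all of each bar at 21 days; the panels come from different kits.

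Across the 16 libraries at 3 days, the miRNAs outside the family whose log2(CPM + 1) ran most like that of miR-130b-3p, among 348 with a mean of at least 10 CPM, were miR-450b-3p (Pearson r = 0.983), miR-181a-1-3p (0.971), miR-30a-3p (0.948), miR-30e-3p (0.948) and miR-17-5p (0.939). Among the members, r was 0.923 for miR-130a-3p and 0.911 for miR-301b-3p, and their ranks among the 348 are not given. It was 0.784 for miR-301a-5p, 0.526 for miR-301a-3p and -0.078 for miR-130b-5p. These libraries share the split by age, title code and depth described above. Across the 12 libraries at 21 days, among 283 miRNAs, the nearest outside the family were miR-350-5p (0.856), miR-17-3p (0.827), miR-322-5p (0.822), miR-16-5p (0.797) and miR-421-3p (0.793). There r was 0.833 for miR-130a-3p, above 4 of these 5, 0.617 for miR-301b-3p, 0.491 for miR-301a-3p, 0.447 for miR-130b-5p and -0.15 for miR-301a-5p. None of the 5 names nearest at 3 days was among the 5 nearest at 21 days, but both lists held an arm of mir-17 (miR-17-5p and miR-17-3p). The values describe likeness of pattern only and carry no test.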

How the data were processed

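TRIzol RNA, 100 ng per library, was used per the labels' protocols. The 3-day libraries used the QIAseq miRNA kit and a NextSeq500, and the 21-day libraries the TruSeq Small RNA kit and a HiSeq2000. Bowtie2 2.2.2, edgeR and GRCm38 are named in the submitters' processing notes, without their role. Which program counted, on which miRNA annotation and with or without molecular identifiers is not given in the sources used here. Deposited values are whole-number counts per pair of hairpin and mature name, which the authors left without normalization. The highest count over hairpins was kept per mature name, and each member was listed under 1 hairpin.

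Within each follow-up, edgeR 4.0.16 (R 4.3.3) was fitted to the 4 groups with TMM, a minimum count of 10 in filterByExpr, and the robust quasi-likelihood F test. The SE of an edgeR log2 difference was derived from this fit, as the size of the difference divided by the square root of F. The fit covered 446 miRNAs at 3 days and 598 at 21 days, with Benjamini-Hochberg adjustment over all of them and a call at an adjusted p under 0.05. The biological coefficient of variation was 0.545 and 0.25. Alternatives were DESeq2 1.42.0, limma-voom (limma 3.58.1), other scalings, no filter, summed hairpins, fewer groups, the title code as a block and leaving out libraries. The scripts were tested on simulated data. The labels do not say that each library is a different mouse, so p-values measure the spread between these libraries, which may be technical. Limits from counts of 0 cover counting error only. Sequences come from RefSeq and gene models from GENCODE, both on GRCm38.

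The members and lists were chosen with earlier results of these data known. Named beside the members are the 5 miRNAs most like miR-130b-3p per follow-up, miRNAs of the same seed, miR-148a-3p, miR-148b-3p and miR-152-3p as relatives with a shifted seed, the opposite arms miR-130a-5p and miR-301b-5p, and lists of cell type markers.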

Additional observations from a re-analysis of the deposited data

How the results depend on the processing

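No paired analysis was possible because the labels number no replicates, and numbers given in accession order pair no libraries. Over the tested comparisons, 77 of 86 counts of called members stayed within 1.5 times the reported count, and 451 of 516 fold changes of single members kept their direction and their side of the threshold, while 48 changed sign. All 48 were differences past no threshold, and the cause was not tested. The count of called members moved in these cases. For MI P7 against MI P1 at 3 days it was 2 with title codes as random blocks. For sham P7 against sham P1 at 21 days it was 1 with DESeq2. For MI P7 against MI P1 at 21 days it was 0 with total count scaling, no filter, or only the groups compared, and 0 to 2 when 1 library was left out.

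Total count scaling moved the median log2 difference of all miRNAs at 21 days to 0.33 (MI P7 against MI P1), -0.20 (MI at P1), 0.38 (MI at P7) and 0.57 (MI effect at P7 minus P1). Under it, signs changed for miR-130b-5p (0.099) and miR-301a-5p (0.29) in MI P7 against MI P1, for miR-301b-3p (-0.14) in MI at P1, and for miR-130b-3p (0.19) and miR-301a-3p (0.31) in MI at P7. For the difference of MI effects they changed for miR-130a-3p (0.21), miR-130b-3p (0.48), miR-301a-3p (0.24) and miR-301b-3p (0.55). That last one was also 0.043 with no filter, 7e-04 with DESeq2 and 0.027 with limma-voom. In MI P7 against MI P1 at 21 days, miR-301a-5p, at -0.0029 as reported, was 0.0078 with DESeq2 size factors, 0.025 with no filter, 0.008 with the DESeq2 test, 0.0025 with summed hairpins and 0.045 with only the groups compared. In the same comparison at 3 days, miR-130b-5p was 0.22 with only the groups compared and 0.050 with the title code block.

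Leaving out 1 library gave ranges across 0 for miR-130b-5p in MI P7 against MI P1 at 3 days (-0.26 to 0.13) and miR-301a-5p in MI P7 against MI P1 at 21 days (-0.27 to 0.16). In MI at P1, 21 days, this held for miR-130a-3p (-0.071 to 0.040) and miR-301a-5p (-0.21 to 0.16). In MI at P7, 21 days, it held for miR-130b-3p (-0.33 to 0.070), miR-301a-3p (-0.11 to 0.17), miR-301a-5p (-0.034 to 0.54) and miR-301b-3p (-0.085 to 0.32). For the difference of effects it held for miR-130b-3p (-0.21 to 0.17) and miR-301b-3p (-0.16 to 0.24). At 3 days miR-301b-3p rests on 1 to 4 reads per MI P7 library, and miR-301a-5p on 1 to 8 reads per P7 library.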

Other observations

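Relatives whose seed is shifted by 1 base did not all follow the family. miR-148a-3p, miR-148b-3p and miR-152-3p carry the seed CAGUGCA, which holds the first 6 bases of the family's seed behind a leading C. At 3 days miR-148a-3p was lower in MI P7 than in MI P1 (839 to 1290 CPM against 3540 to 5861 CPM, log2 difference -2.11 ± 0.82, edgeR adjusted p = 0.0356), and so was miR-152-3p (360 to 734 CPM against 2803 to 3607 CPM, -2.59 ± 0.77, edgeR adjusted p = 0.0113). miR-148b-3p was at 391 to 423 CPM and 394 to 566 CPM (-0.27 ± 0.33, edgeR adjusted p = 0.47). At 21 days miR-152-3p was higher in MI P7 (104 to 255.5 CPM) than in sham P7 (61.0 to 90.3 CPM), with a log2 difference of 1.25 ± 0.29 (edgeR adjusted p = 0.0124). Its MI effect at P7 minus that at P1 was 1.58 ± 0.41 (edgeR adjusted p = 0.0289).

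The opposite arms of mir-130a and mir-301b were scarce. At 3 days miR-130a-5p was at 5.65 to 11.7 CPM in MI P1 and 0.854 to 2.197 CPM in MI P7 (-2.45 ± 0.92, edgeR adjusted p = 0.031), from 1 to 3 reads per MI P7 library. It passed the low-count filter only because of P1 libraries, where it was high, so this call is no support for a fall. miR-301b-5p had too few reads to be tested in either follow-up.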
